A study of Mus musculus with 15 samples.

Results

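B16-F10, a mouse melanoma line, was compared with and without a CRISPR-Cas9 knockout of Ssbp4 in 8 of the 15 libraries of the series, 4 knockout and 4 control. The samples were taken by their titles, and 10902 of the 55303 gene entries of the table passed the filter of a mean of at least 1 FPKM (fragments per kilobase of gene and M mapped fragments) over these 8 libraries. Knockout cells had received a mixture of guide RNAs against Ssbp4 (Synthego) together with Cas9 by nucleofection. Control cells, labelled wild type, had received Cas9 and 1 control guide RNA against an intergenic stretch of chromosome 2. The labels do not say whether the knockout cells were a clone or a mixed population, nor how long after nucleofection RNA was taken, and both groups shared the same serum-containing culture medium. The other 7 libraries came from MC38, a mouse colon adenocarcinoma line, as wild type (4 libraries) or with murine Ssbp4 from a retroviral vector that also encodes EGFP (3 libraries). MC38 too is labelled as melanoma tissue. MC38 values are used here only beside the B16-F10 genes.

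SSBP proteins are nuclear adaptors that bind LDB1, a cofactor that joins LIM-domain and GATA transcription factors into complexes, and they are known to protect LDB1 from degradation. Id proteins are helix-loop-helix factors without a DNA-binding region that sequester E proteins, and their genes are classical direct targets of bone morphogenetic protein (BMP) signalling through SMAD1, SMAD5 and SMAD9. In melanocytes and melanoma, MITF and SOX10 drive the pigment genes. The series title names immune evasion and cholesterol synthesis, so genes of both are described beside those that changed most.

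All 9 melanocyte markers were measured at 1 FPKM or more, with a summed level of 13042 to 17070 FPKM in control and 16720 to 17250 FPKM in knockout libraries. Of 17 leukocyte markers 1 (Cd68) reached 1 FPKM and 9 were listed at 0 in every library; the summed level of the list was 2.70 to 4.51 FPKM in control and 3.43 to 5.22 FPKM in knockout libraries. Endothelial and fibroblast lists had 2 of 10 and 2 of 9 members at 1 FPKM or more, and the epithelial list 0 of 10. The libraries held an estimated 32.3 to 48.5 M fragments each, read from the steps between low values. Control libraries 1 and 2 lay close together, as did 3 and 4 (chi-square per degree of freedom 6.90 and 7.00), whereas pairs across that split differed more (30.3 to 31.2), and a principal component holding 42.8% of the variance placed 1 and 2 at -9.42 and -10.3 and both others at 17.8. Bnip3, a hypoxia-responsive mitophagy receptor chosen after its values were seen, shows the split: it stood at 4.85, 4.55, 39.7 and 39.5 FPKM in control libraries 1 to 4 and at 7.75, 8.23, 8.00 and 5.40 FPKM in knockout libraries 1 to 4. Among knockout libraries, 1 to 3 differed from each other by 5.89 to 10.2 and from library 4 by 15.4 to 22.6. The labels name no batch. They also do not state that libraries came from separate cultures. Each p-value treats the 4 libraries of a group as independent, though the controls formed 2 pairs. The spread within a control pair or among the knockout libraries may be only technical.

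Ssbp4, the targeted gene, was lower in each knockout library than in each control library. It stood at 32.7, 37.4, 32.4 and 35.4 FPKM in control libraries 1 to 4 and at 23.1, 22, 24.3 and 19 FPKM in knockout libraries 1 to 4. The knockout mean of 22.1 ± 2.29 FPKM was 64.1% of the control mean of 34.5 ± 2.37 FPKM (log2 fold change -0.62, SE 0.08, adjusted p = 0.0087; two-sided exact permutation p = 0.0286, the smallest that 4 against 4 libraries can give). The groups did not overlap, which alone gives this permutation p. Of all tested genes 13.9% were separated as fully, in either direction. Library 4, the lowest for Ssbp4, was the knockout library nearest to the control mean for 138 of the 243 genes with an adjusted p under 0.05 (56.8%). Over all tested genes, its deviations from its group mean correlated at 0.29 and 0.28 with those of control libraries 1 and 2. With those of control libraries 3 and 4 they correlated at -0.27 and -0.30. FPKM over the whole gene does not show how much of the remaining mRNA encodes protein, and in bulk RNA fewer cells with the transcript and less transcript per cell cannot be told apart. Of the other 8 tested SSBP, LDB and LMO cofactor genes, Ldb1, the partner of SSBP proteins, fell from 116 ± 4.82 to 99.5 ± 2.25 FPKM (log2 fold change -0.22, SE 0.04, adjusted p = 0.046). Ldb1 was no longer called when any single library other than knockout library 4 was left out (adjusted p = 0.052 to 0.16), whereas Ssbp4 was called in each of the 8 such fits. Ssbp3, another member of the family, stood at 25.6 ± 4.10 FPKM in control and 32.9 ± 1.49 FPKM in knockout (log2 fold change 0.36, SE 0.10, adjusted p = 0.085), which did not pass.

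**Figure D1:**
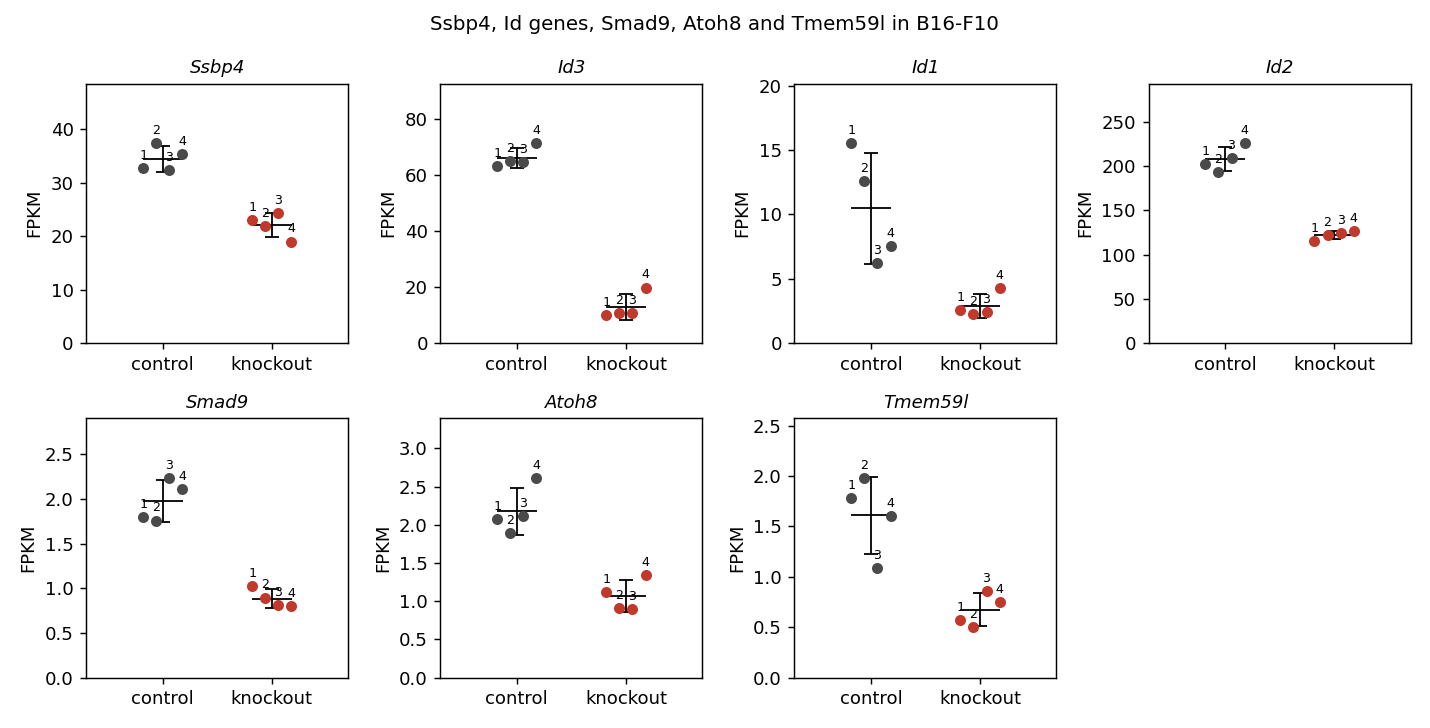
FPKM of 7 genes in each control and knockout library of B16-F10 (points, numbered by library), with the group mean and SD (bar). Each panel has its own axis from 0, and in all 7 panels the highest knockout library lies below the lowest control library.

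Id3, Id2 and Id1 all fell, Id3 the most. Id3 stood at 63.3, 65, 64.7 and 71.2 FPKM in control libraries 1 to 4 and at 9.95, 10.8, 10.6 and 19.8 FPKM in knockout libraries 1 to 4, so knockout library 4 was the highest of its group and still below all controls. Its mean fell from 66 ± 3.51 to 12.8 ± 4.68 FPKM (log2 fold change -2.33, SE 0.18, adjusted p = 0.00028), to 19.3% of control. Id2, the most abundant of the family here, stood at 202, 194, 209.9 and 226 FPKM in control libraries 1 to 4 and at 115, 122, 124 and 126 FPKM in knockout libraries 1 to 4. The 4 knockout libraries lay close together and well under the lowest control (log2 fold change -0.76, SE 0.06, adjusted p = 0.00028). Id1 stood at 15.5, 12.6, 6.24 and 7.56 FPKM in control libraries 1 to 4 and at 2.57, 2.21, 2.37 and 4.23 FPKM in knockout libraries 1 to 4. Its control libraries 3 and 4 lay below libraries 1 and 2, and the knockout libraries lay below all of them (log2 fold change -1.52, SE 0.26, adjusted p = 0.030). Exact permutation tests gave p = 0.0286 for each of the 3, the smallest possible. Any gene with every knockout library on one side of every control gets this value, so it adds nothing to that separation. Among all tested genes 13.9% were separated in this way, 5.32% with the knockout lower. The test also takes the control libraries as exchangeable, although they formed pairs. Id4 was under the filter.

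No gene for an Id-binding E protein was called (limma). Tcf3 and Tcf12, which encode the E proteins E2A and HEB, stood at 29.9 ± 1.96 FPKM in control and 29.8 ± 2.74 FPKM in knockout and at 71 ± 2.33 FPKM in control and 72.1 ± 2.24 FPKM in knockout, neither called. Tcf4, which encodes E2-2, stood at 8.41 ± 0.128 FPKM in control and 10.3 ± 0.906 FPKM in knockout with non-overlapping groups but did not pass (log2 fold change 0.27, SE 0.06, adjusted p = 0.061); of the 3 it alone had an unadjusted p under 0.05, and it was called higher at a common FPKM total (adjusted p = 0.049) and without knockout library 4 (adjusted p = 0.016). Among 21 tested BMP receptors, SMADs and targets, 2 were called, both lower, and 0 higher, against a background of 2.23% of all tested genes called in either direction. They were Smad9, a receptor-regulated SMAD and itself a BMP target, and Atoh8, a helix-loop-helix factor induced by BMP signals. Smad9 stood at 1.80, 1.76, 2.23 and 2.11 FPKM in control libraries 1 to 4 and at 1.03, 0.898, 0.810 and 0.799 FPKM in knockout libraries 1 to 4 (log2 fold change -0.66, SE 0.08, adjusted p = 0.0087). Atoh8 stood at 2.07, 1.89, 2.12 and 2.61 FPKM in control libraries 1 to 4 and at 1.12, 0.916, 0.903 and 1.34 FPKM in knockout libraries 1 to 4 (log2 fold change -0.62, SE 0.10, adjusted p = 0.025). Both were near 1 FPKM, where the added pseudocount of 1 shrinks a fold change. The receptors Bmpr1a and Bmpr2 and the signal carriers Smad1, Smad5 and Smad4 were not called, with adjusted p of 0.37 or more, and the median of the list was 0.07 against 0.02 for all tested genes. Id2, Id3 and Smad9 were called in each fit leaving out 1 library. Id1 lost its call without control library 2 or 4 or knockout library 1, 2 or 3 (adjusted p = 0.051 to 0.12), and Atoh8 without control library 3 or 4 or knockout library 1, 2 or 3 (adjusted p = 0.061 to 0.10).

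The promoters of these genes are printed because the genes fell together. Sequences are RefSeq's on GRCm38.p6, 250 bases before to 50 after the annotated start, 5′ to 3′ on the gene's strand. The deposited tables were made on GRCm39, so these positions are those of the RefSeq table only. Capitals mark GGCGCC, a GC-rich element bound by SMAD1 and SMAD5, and GTCTG, the SMAD box, read on both strands (CAGAC is the latter's complement). The Id2 window lies at chr12:25096043-25096342 on the minus strand, Id3 at chr4:136143572-136143871 on the plus strand, Smad9 at chr3:54755332-54755631 on the plus strand and Atoh8 at chr6:72235528-72235827 on the minus strand.
Id2: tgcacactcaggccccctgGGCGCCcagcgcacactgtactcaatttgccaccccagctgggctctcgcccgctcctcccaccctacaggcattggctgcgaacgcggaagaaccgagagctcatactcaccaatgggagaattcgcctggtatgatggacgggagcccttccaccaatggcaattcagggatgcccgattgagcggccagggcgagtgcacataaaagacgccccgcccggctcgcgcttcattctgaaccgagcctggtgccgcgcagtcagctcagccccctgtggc
Id3: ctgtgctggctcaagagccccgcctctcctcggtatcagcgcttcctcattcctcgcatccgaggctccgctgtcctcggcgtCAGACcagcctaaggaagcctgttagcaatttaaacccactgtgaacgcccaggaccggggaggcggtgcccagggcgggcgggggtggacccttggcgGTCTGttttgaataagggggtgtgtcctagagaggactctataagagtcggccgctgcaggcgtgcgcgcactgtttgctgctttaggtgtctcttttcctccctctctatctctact
Smad9: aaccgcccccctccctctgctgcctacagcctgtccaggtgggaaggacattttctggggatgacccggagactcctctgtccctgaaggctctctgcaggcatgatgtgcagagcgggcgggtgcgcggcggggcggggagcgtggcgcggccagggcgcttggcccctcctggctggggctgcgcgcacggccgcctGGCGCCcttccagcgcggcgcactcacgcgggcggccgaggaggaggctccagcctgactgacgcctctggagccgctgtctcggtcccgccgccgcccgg
Atoh8: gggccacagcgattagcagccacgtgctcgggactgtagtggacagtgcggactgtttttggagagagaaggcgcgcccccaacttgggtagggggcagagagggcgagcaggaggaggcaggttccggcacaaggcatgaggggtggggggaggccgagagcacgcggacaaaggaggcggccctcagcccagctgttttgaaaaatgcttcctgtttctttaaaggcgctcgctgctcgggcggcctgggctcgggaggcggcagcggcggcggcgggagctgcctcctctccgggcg
Id2 and Smad9 hold 1 GGCGCC each, Id3 holds 2 GTCTG, and Atoh8 holds neither. GGCGCC is present in 11.9% of all 32851 promoters of the table and in 21.8% of those of tested genes, 24.8% of those of genes called lower and 13.9% of those called higher. For GTCTG these shares were 49.6%, 46.3%, 46.7% and 50.4%. A match only describes the letters of the window. Id1 was not matched in the table.

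Over all tested genes 243 were called at an adjusted p under 0.05, which is 2.23%, 145 higher (1.33%) and 98 lower (0.899%). Fold changes were positive for 57.7% of all tested genes and negative for 4608 of them. The groups did not overlap for 1510 genes (13.9%; 8.53% with the knockout higher and 5.32% with it lower), and 2325 genes had an unadjusted p under 0.05. The split depended on scaling, with 226 higher and 83 lower at a common FPKM total and 80 higher and 121 lower with median-of-ratios factors, while the median of all genes moved by 0.02 or less. At least a 2-fold change was reached by 9 called genes, 2 higher and 7 lower. Leaving out libraries moved the count of calls widely. It was 416 (3.82%) without knockout library 4, 23 to 27 without knockout library 1, 2 or 3, 41 and 44 without control library 4 or 3, and 93 and 119 without control library 1 or 2. Knockout library 4 was the nearest of its group to the control mean for 138 of the 243 genes (56.8%). Called in each of the 8 fits were 20 genes (0.183% of those tested), 13 lower and 7 higher. In the paragraphs that follow, a fold change is a log2 difference on log2(FPKM + 1), knockout minus control, n = 4 libraries each.

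**Figure D2:**
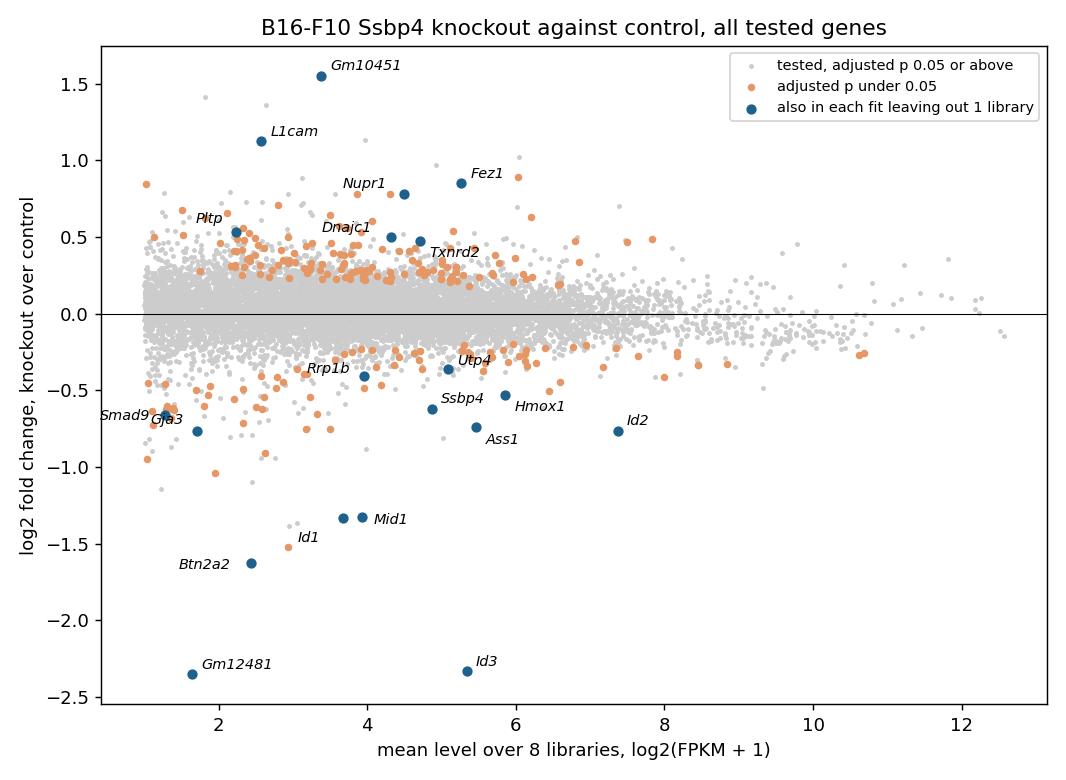
Log2 fold change (knockout over control, on log2(FPKM + 1)) against the mean level of each of the 10902 tested genes in B16-F10. Orange points are called at an adjusted p under 0.05, and the blue points are the 20 genes called in each fit leaving out 1 library, labelled where they are described here; Id1, orange, is labelled for comparison.

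Those 20 genes had varied functions. The 13 lower ones included Ssbp4, Id2, Id3 and Smad9 above and Btn2a2, Mid1, Gja3, Ass1, Hmox1, Rrp1b, Utp4 and Gm12481. Btn2a2, a butyrophilin known to restrain T cells, stood at 6.33, 6.33, 7.86 and 8.28 FPKM in control libraries 1 to 4 and at 1.70, 1.43, 1.83 and 1.60 FPKM in knockout libraries 1 to 4 (log2 fold change -1.63, SE 0.09, adjusted p = 6.1e-05). The knockout libraries varied little and the groups were far apart. Ass1, argininosuccinate synthase of the urea and arginine cycle, stood at 51.5, 53.4, 55.2 and 57.5 FPKM in control libraries 1 to 4 and at 30.3, 31.6, 31.7 and 35 FPKM in knockout libraries 1 to 4 (log2 fold change -0.74, SE 0.06, adjusted p = 0.00028). The knockout range of 30.3 to 35.0 FPKM did not reach the control range of 51.5 to 57.5. Mid1, a microtubule-associated ubiquitin ligase, fell from 20.8 ± 1.46 to 7.77 ± 1.49 FPKM (log2 fold change -1.33, SE 0.11, adjusted p = 0.00045). Gm12481, a pseudogene on chromosome 4, stood at 5.42, 4.67, 3.63 and 3.25 FPKM in control libraries and at 0, 0.051, 0 and 0 in knockout libraries; a near-identical parent gene could share its reads. The 7 higher ones were L1cam, Fez1, Nupr1, Txnrd2, Dnajc1, Pltp and Gm10451. Gm10451, a long noncoding RNA on chromosome 12, stood at 5.31, 4.61, 3.64 and 3.60 FPKM in control libraries 1 to 4 and at 15.5, 14, 16.1 and 12.2 FPKM in knockout libraries 1 to 4 (log2 fold change 1.55, SE 0.12, adjusted p = 0.00028). The groups did not overlap.

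**Figure D3:**
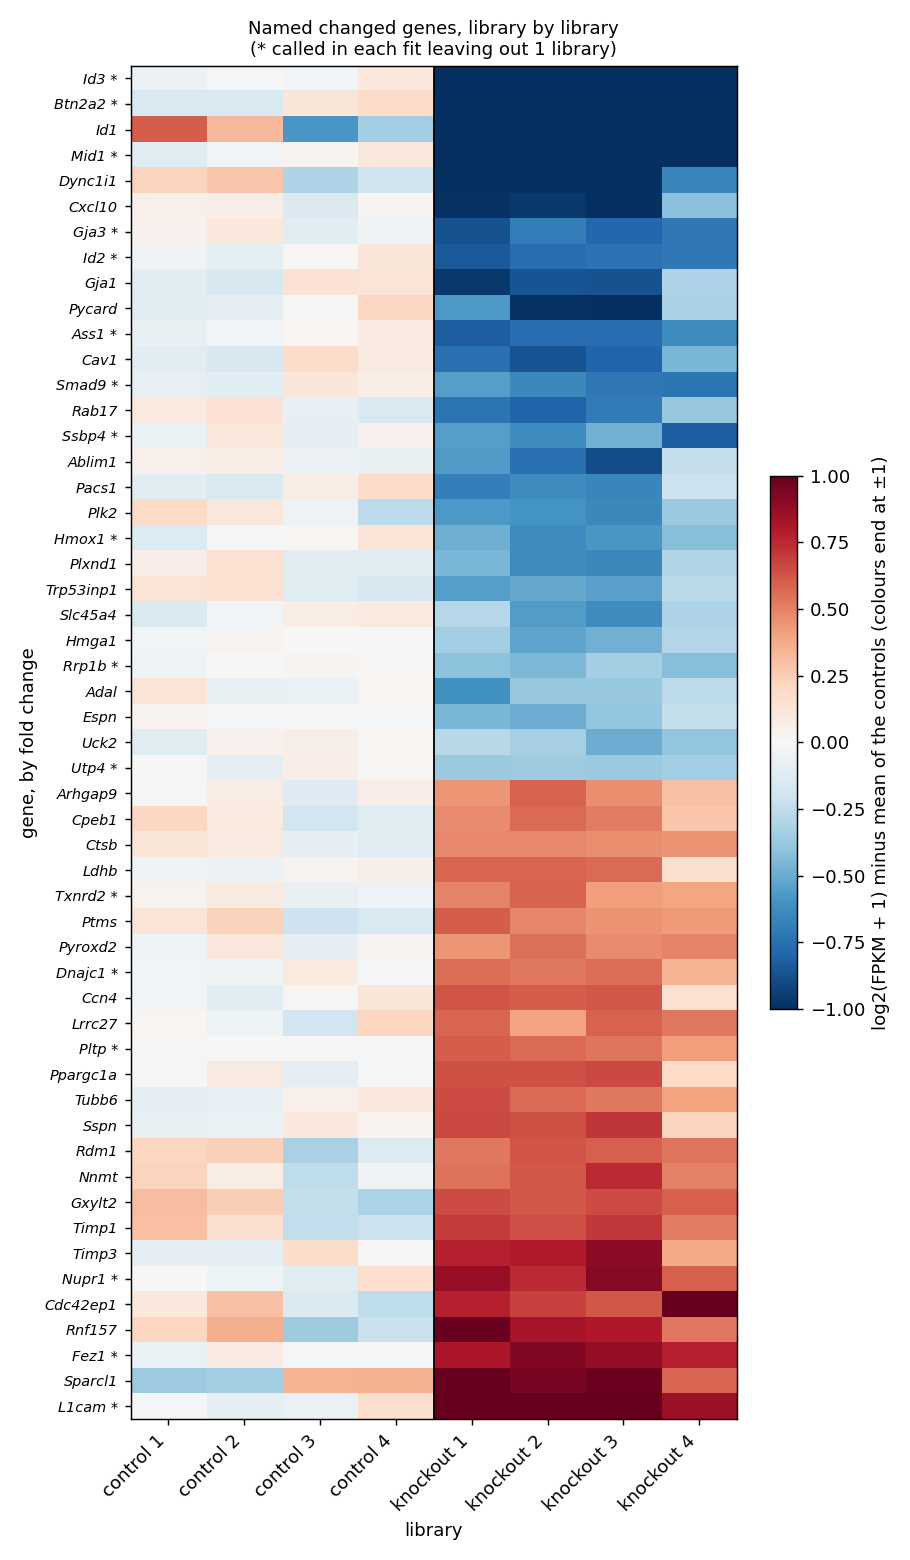
Named changed genes (rows, by fold change, lowest at the top) in each library (columns), as log2(FPKM + 1) minus the mean of the controls; colours end at 1 on either side. Knockout library 4 is paler than libraries 1 to 3 in most rows, and the asterisks mark genes called in each fit leaving out 1 library.

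Tmem59l, on chromosome 8 as is Ssbp4, fell from 1.61 ± 0.384 to 0.672 ± 0.163 FPKM (log2 fold change -0.64, SE 0.12, adjusted p = 0.043). It lost its call without any single library except control library 3 and knockout library 4 (adjusted p = 0.063 to 0.15). Chromosomes were read from RefSeq gene records.

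Neural adhesion and axonal genes were among those that rose. Of 36 tested members of the list 3 rose and 0 fell, where 1.33% of all tested genes were called higher. A positive fold change was found for 31 of the 36, against 57.7% of all tested genes. The list median was 0.07 against 0.02 for all genes. L1cam, a neural cell adhesion molecule, stood at 2.68, 2.49, 2.56 and 3.20 FPKM in control libraries 1 to 4 and at 7.47, 8.03, 7.48 and 5.73 FPKM in knockout libraries 1 to 4 (log2 fold change 1.13, SE 0.10, adjusted p = 0.00088). The groups did not overlap, and knockout library 4 was the nearest to the controls. Fez1, a kinesin adaptor of axonal transport, stood at 25.3, 28.1, 26.2 and 26.3 FPKM in control libraries 1 to 4 and at 47.2, 51.2, 49.5 and 46.1 FPKM in knockout libraries 1 to 4 (log2 fold change 0.85, SE 0.05, adjusted p = 6.3e-05). Here knockout library 4, the lowest of its group, was still far over the highest control. Sema3b, a secreted semaphorin, rose from 20.4 ± 2.21 to 27.8 ± 2.40 FPKM (log2 fold change 0.43, SE 0.08, adjusted p = 0.044). Plxnd1, a semaphorin receptor outside that list, fell from 101 ± 9.52 to 71 ± 8.26 FPKM (log2 fold change -0.51, SE 0.09, adjusted p = 0.035). L1cam and Fez1 kept their calls in each fit leaving out 1 library; leaving out any library but knockout 4 ended the call of Sema3b or Plxnd1 (adjusted p = 0.053 to 0.15).

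Few matrix and cell-surface genes were called. Among 17 metalloproteases and their inhibitors, 2 were called higher and 1 lower, with a median of 0.09. Of all tested genes 1.33% were called higher and 0.899% lower. The 2 higher ones of that list were inhibitors: Timp3 stood at 3.89, 3.87, 4.92 and 4.27 FPKM in control libraries 1 to 4 and at 7.96, 8.07, 8.71 and 5.79 FPKM in knockout libraries 1 to 4 (log2 fold change 0.71, SE 0.11, adjusted p = 0.025), and Timp1 rose from 7.88 ± 1.68 to 12.7 ± 0.790 FPKM (log2 fold change 0.64, SE 0.12, adjusted p = 0.039). Adam12, a membrane metalloprotease, fell from 12 ± 0.677 to 9.55 ± 0.486 FPKM (log2 fold change -0.30, SE 0.06, adjusted p = 0.039). Sparcl1, a secreted matricellular protein and the 1 called of 23 collagen and matrix genes, stood at 33.9, 34.5, 55.9 and 56.4 FPKM in control libraries 1 to 4 and at 92.4, 85.8, 87.3 and 66.3 FPKM in knockout libraries 1 to 4 (log2 fold change 0.89, SE 0.18, adjusted p = 0.047); control libraries 3 and 4 were its higher controls, and knockout library 4 its lowest knockout. Ccn4, a matricellular protein and Wnt target, rose from 5.31 ± 0.423 to 8.00 ± 1.33 FPKM, with library 4 at 6.01 FPKM just over the highest control of 5.87 (log2 fold change 0.50, SE 0.11, adjusted p = 0.050). Sspn (sarcospan) and Gxylt2 (a xylosyltransferase of EGF repeats) rose by 0.56 and 0.63. Cd9, a tetraspanin and the 1 called of 21 integrin and focal adhesion genes, rose by 0.30; the median of that list was 0.09. The collagen and matrix list had a median of -0.06, with 12 of 23 fold changes negative. With each library centred per chromosome, the metalloprotease list kept 1 gene called higher and 1 lower, and the matrix and integrin lists had 0 called; without knockout library 4, the genes called higher numbered 4, 3 and 1 in these lists, and those called lower 1, 0 and 1. None of these 8 genes was called in every fit leaving out 1 library: leaving out knockout library 1, 2 or 3 ended all 8 calls, control library 1, 2, 3 or 4 ended 6, 4, 7 and 7, and knockout library 4 ended 1 (adjusted p = 0.050 to 0.16).

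Gja1 and Cav1 were the called genes of the gap junction and caveolar list. Of 7 listed and tested genes these 2 fell and 0 rose, where 0.899% of all tested genes were called lower. A positive fold change was found for 4 of the 7, and the median was 0.05 against 0.02 for all genes. Gja1 (connexin 43) stood at 9.36, 9.02, 11.4 and 11.3 FPKM in control libraries 1 to 4 and at 4.75, 5.15, 5.12 and 8.06 FPKM in knockout libraries 1 to 4 (log2 fold change -0.75, SE 0.14, adjusted p = 0.039), and library 4 lay above the other knockouts. Cav1, the coat protein of caveolae, fell from 5.24 ± 0.704 to 2.81 ± 0.490 FPKM (log2 fold change -0.71, SE 0.11, adjusted p = 0.022). Gja3 (connexin 46), outside the list, fell from 3.13 ± 0.265 to 1.43 ± 0.133 FPKM (log2 fold change -0.77, SE 0.07, adjusted p = 0.0019). Gja3 was called in each fit leaving out 1 library, while Gja1 and Cav1 both lost their calls without control library 3 or 4 or knockout library 1, 2 or 3, and 1 of the pair without control library 1 (adjusted p = 0.054 to 0.14).

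Genes of the cytoskeleton and traffic moved in both directions. Cdc42ep1, an effector of CDC42, stood at 14.5, 16.6, 12 and 11.1 FPKM in control libraries 1 to 4 and at 23.7, 22.1, 21.2 and 28.7 FPKM in knockout libraries 1 to 4 (log2 fold change 0.78, SE 0.13, adjusted p = 0.025). Here library 4 was the highest knockout library. Rhou, a small GTPase, and Rock1, a kinase acting on actomyosin, rose by 0.29 and 0.28. Arhgap9, a GTPase-activating protein, and Tubb6, a beta-tubulin, rose by 0.45 and 0.54. Dync1i1, a dynein intermediate chain, fell from 4.19 ± 1.05 to 1.52 ± 0.489 FPKM (log2 fold change -1.04, SE 0.17, adjusted p = 0.025). The actin-binding genes Ablim1 and Espn fell by 0.61 and 0.40, and Rab17, a small GTPase, and Pacs1, a sorting protein, fell by 0.65 and 0.55. Apart from Mid1, none of these genes was called in every fit leaving out 1 library: of 11 with Mid1, leaving out knockout library 1, 2 or 3 ended 9, 10 and 9 calls, control libraries 1 to 4 ended 6, 3, 8 and 7, and knockout library 4 ended 0 (adjusted p = 0.051 to 0.16).

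The called genes of the lipid lists were all higher, by small amounts, and most were not called. Of 22 cholesterol synthesis enzymes 2 rose and 0 fell, where 1.33% of all tested genes were called higher. A positive fold change was found for 17 of the 22, against 57.7% of all tested genes. The median was 0.11 against 0.02 for all genes. Fdft1, squalene synthase, stood at 23.1, 21.7, 21.5 and 21 FPKM in control libraries 1 to 4 and at 27.9, 28.8, 29.1 and 25.1 FPKM in knockout libraries 1 to 4 (log2 fold change 0.33, SE 0.06, adjusted p = 0.031). Dhcr7, which makes cholesterol from its last precursor, rose from 66.9 ± 2.10 to 79.2 ± 3.25 FPKM (log2 fold change 0.24, SE 0.05, adjusted p = 0.041). Of 16 sterol sensing and uptake genes 0 were called (limma). An unadjusted p under 0.05 was found for 10 of them, and for 2325 of all 10902 tested genes. With median-of-ratios scaling 1 was called lower, with centring per chromosome 1 lower, and without knockout library 4, 1 higher. The groups did not overlap for 9 (56.3%), 6 with the knockout higher and 3 with it lower. Among all tested genes this share was 13.9%, 8.53% higher and 5.32% lower. Insig1, a sterol sensor, stood at 66.6 ± 9.30 FPKM in control and 75.8 ± 6.93 FPKM in knockout, not called. Npc2, a lysosomal sterol carrier, stood at 81.6 ± 6.38 FPKM in control and 85.9 ± 0.757 FPKM in knockout, not called. Among 7 efflux, esterification and LXR target genes 2 rose and 0 fell. Lpcat3, which puts polyunsaturated chains into phospholipids, stood at 44.1, 44.1, 44.9 and 44.6 FPKM in control libraries 1 to 4 and at 61.9, 59.4, 59 and 53.4 FPKM in knockout libraries 1 to 4 (log2 fold change 0.39, SE 0.05, adjusted p = 0.010). Abca1, the cholesterol exporter, rose from 3.04 ± 0.391 to 4.33 ± 0.130 FPKM (log2 fold change 0.41, SE 0.08, adjusted p = 0.040). Pltp, the phospholipid transfer protein and an LXR target outside that list, stood at 2.86, 2.82, 2.86 and 2.78 FPKM in control libraries 1 to 4 and at 4.82, 4.68, 4.56 and 4.13 FPKM in knockout libraries 1 to 4 (log2 fold change 0.53, SE 0.06, adjusted p = 0.0052). Of 16 fatty acid synthesis genes 2 rose, the desaturases Fads2 (0.34) and Fads1 (0.25). Pltp was called in each fit leaving out 1 library; of these 7 genes, leaving out control libraries 1 to 4 ended 4, 4, 5 and 5 calls, knockout libraries 1 to 3 ended 5, 6 and 6, and knockout library 4 ended 0 (adjusted p = 0.052 to 0.16). With each library centred per chromosome, 0 cholesterol enzymes and 1 fatty acid gene were called higher.

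Few immune genes were called. Of 18 tested interferon-stimulated genes 0 were called, 3 at an unadjusted p under 0.05, with a median of 0.07 (limma; without knockout library 4, 1 was called higher). Of 14 MHC class I presentation genes 0 were called and 6 had an unadjusted p under 0.05 (limma). H2-K1 stood at 3.24, 4.12, 6.94 and 5.62 FPKM in control libraries 1 to 4 and at 3.12 ± 0.240 FPKM in knockout, not called. B2m, the light chain, stood at 207, 192, 151 and 146 FPKM in control libraries 1 to 4 and at 211 ± 6.29 FPKM in knockout, not called. For both, control libraries 1 and 2 lay nearer the knockouts than control libraries 3 and 4 did. Without knockout library 4, 2 genes of that list were called higher. Btn2a2 was the 1 called of 12 checkpoint and immune ligand genes. Cxcl10, a T cell attractant and the 1 called of 7 chemokines and cytokines, stood at 7.25, 7.32, 6.20 and 7.10 FPKM in control libraries 1 to 4 and at 3.01, 3.08, 2.32 and 4.94 FPKM in knockout libraries 1 to 4 (log2 fold change -0.91, SE 0.15, adjusted p = 0.028). Knockout library 4 was again the nearest to the controls. Spp1 (osteopontin) stood at 4.19, 4.92, 0.902 and 1.15 FPKM in control libraries 1 to 4 and at 7.62, 8.55, 7.20 and 7.16 FPKM in knockout libraries 1 to 4 and did not pass (log2 fold change 1.36, SE 0.34, adjusted p = 0.067). Nfkb1, the 1 called of 11 NF-kB genes, rose from 24.3 ± 0.220 to 29.6 ± 1.49 FPKM (log2 fold change 0.27, SE 0.05, adjusted p = 0.031). Pycard, the inflammasome adaptor ASC, fell from 13.1 ± 1.46 to 7.53 ± 2.18 FPKM (log2 fold change -0.75, SE 0.16, adjusted p = 0.049). Btn2a2 was called in each fit leaving out 1 library; leaving out any library but knockout 4 ended the calls of Cxcl10, Nfkb1 and Pycard (adjusted p = 0.051 to 0.16).

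**Figure D4:**
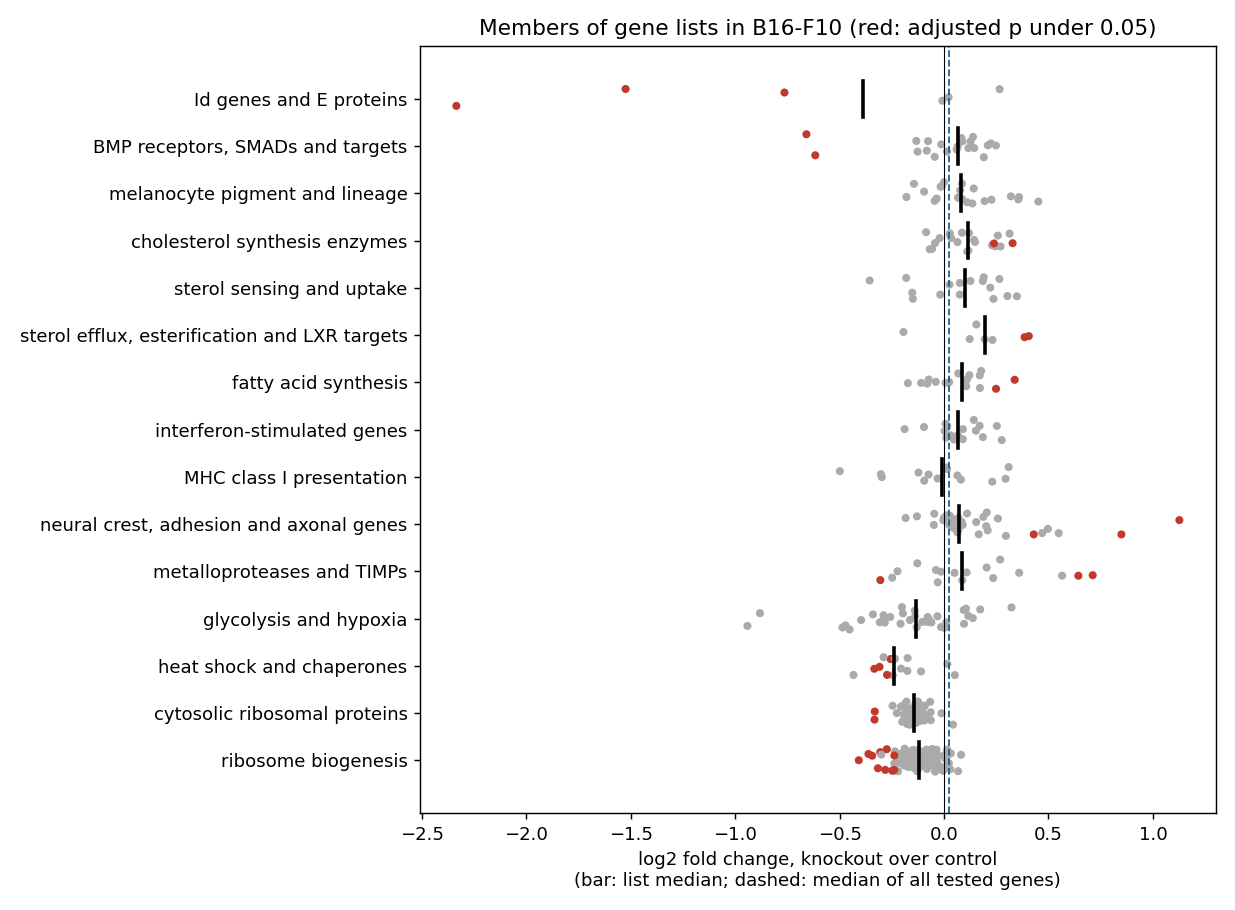
Log2 fold changes (knockout over control) of the tested members of 15 gene lists in B16-F10, 1 point a gene, red where called; black bars mark list medians and the dashed line the median of all tested genes. Heat shock, cytosolic ribosomal protein and ribosome biogenesis genes lie mostly left of the line.

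The called chaperone and cytosolic ribosomal protein genes were all lower, by small amounts, and most were not called. Of 14 heat shock and chaperone genes 4 fell and 0 rose, with a median of -0.24. Of all tested genes 0.899% were called lower. Hspe1, the mitochondrial co-chaperonin, stood at 372, 384, 370.4 and 427 FPKM in control libraries 1 to 4 and at 271, 321, 321 and 319 FPKM in knockout libraries 1 to 4 (log2 fold change -0.33, SE 0.07, adjusted p = 0.049). Hsph1, Hsp90ab1 and Hspa8, members of the HSP110, HSP90 and HSP70 families, fell by 0.31, 0.27 and 0.26. At a common FPKM total 1 of these 4 was called and, with chromosome centring, 2; leaving out any library but control 2 or knockout 4 ended all 4 calls, and these ended 3 and 1 (adjusted p = 0.054 to 0.17). Of 61 cytosolic ribosomal protein genes 2 fell and 0 rose, where 0.899% of all tested genes were called lower and 2.23% in either direction. The groups did not overlap for 21 of the 61 (34.4%), all with the knockout lower, against 5.32% of all tested genes in that direction. A negative fold change was found for 60 of the 61, against 4608 of all 10902 tested genes, and the list median was -0.14. Rps23 fell from 388 ± 23.1 to 308 ± 20.9 FPKM (log2 fold change -0.33, SE 0.06, adjusted p = 0.041) and Rpl10a from 511 ± 45.3 to 405 ± 13.3 FPKM (log2 fold change -0.33, SE 0.07, adjusted p = 0.046). These families have near-identical pseudogene copies, so their values are uncertain. Max, the dimerization partner of MYC and the 1 called of 16 genes of that network, fell by 0.20, and 13 of the 16 had a negative fold change; Myc stood at 29.2 ± 4.74 FPKM in control and 29.5 ± 1.73 FPKM in knockout, not called.

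Of 96 ribosome biogenesis genes, a list assembled after the values were seen, 10 were lower and 0 higher, so the count is a description only. Of all tested genes 0.899% were called lower. Rrp1b, which works in ribosomal RNA processing, stood at 16.3, 16.8, 17.1 and 16.9 FPKM in control libraries 1 to 4 and at 12.3, 12, 13 and 12.2 FPKM in knockout libraries 1 to 4 (log2 fold change -0.41, SE 0.05, adjusted p = 0.0045). Utp4, a part of the small-subunit processome, stood at 37.4, 35.1, 39.1 and 37.7 FPKM in control libraries 1 to 4 and at 28.6, 28.9, 28.6 and 29.2 FPKM in knockout libraries 1 to 4 (log2 fold change -0.36, SE 0.04, adjusted p = 0.0087). The groups of both were far apart relative to their spread. Polr1b, a subunit of RNA polymerase I, and the nucleolar or pre-ribosomal factors Nolc1, Noc2l, Nop16, Nop58, Wdr43, Nmd3 and Ddx21 fell by 0.24 to 0.34. Purine and pyrimidine genes, also listed after their values were seen, had 5 of 28 lower and 0 higher: Atic and Gart of purine synthesis, Uck2 (uridine-cytidine kinase), Ampd2 (AMP deaminase) and Adal (an adenosine deaminase-like enzyme) fell by 0.20 to 0.40. Of 18 genes, these with Rps23, Rpl10a and Max, Rrp1b and Utp4 were called in each fit leaving out 1 library; leaving out control libraries 1 to 4 ended 11, 11, 14 and 16 calls, knockout libraries 1 to 4 ended 15, 16, 16 and 4 (adjusted p = 0.051 to 0.16).

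Stress and redox genes included several of the stable changes. Nupr1, a stress-induced nuclear protein, stood at 15.4, 15, 14.1 and 17.5 FPKM in control libraries 1 to 4 and at 29.1, 26.7, 29.97 and 23.9 FPKM in knockout libraries 1 to 4 (log2 fold change 0.78, SE 0.08, adjusted p = 0.0036). Each knockout library exceeded every control. Nupr1 and Cebpg (0.24), a CEBP-family partner, were the 2 called of 27 integrated stress response genes, with 0 lower. Dnajc1, an ER membrane J-domain protein and the 1 called of 22 ER chaperone genes, rose from 15.5 ± 0.741 to 22.3 ± 1.56 FPKM (log2 fold change 0.50, SE 0.06, adjusted p = 0.0087), although 18 of the 22 had a negative fold change; Calr stood at 855 ± 97.9 FPKM in control and 693 ± 42.4 FPKM in knockout, not called. Of 32 NRF2 and glutathione-thioredoxin genes 1 rose and 2 fell, where 1.33% of all tested genes were called higher and 0.899% lower. Txnrd2, the mitochondrial thioredoxin reductase, stood at 21.4, 22.3, 19.8 and 20.1 FPKM in control libraries 1 to 4 and at 29.8, 32, 28.2 and 27.8 FPKM in knockout libraries 1 to 4 (log2 fold change 0.48, SE 0.06, adjusted p = 0.0087). Hmox1, heme oxygenase, stood at 61.4, 66.8, 68.4 and 73.9 FPKM in control libraries 1 to 4 and at 47.7, 43.4, 44.8 and 49.996 FPKM in knockout libraries 1 to 4 (log2 fold change -0.53, SE 0.07, adjusted p = 0.0087). Gsr, glutathione reductase, fell by 0.26. Nupr1, Dnajc1, Txnrd2 and Hmox1 were called in each fit leaving out 1 library; Cebpg and Gsr both lost their calls without control library 1, 3 or 4 or knockout library 1, 2 or 3, and 1 of them without control library 2 or knockout library 4 (adjusted p = 0.063 to 0.16).

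Metabolic and nuclear genes completed the named set. Ldhb, a lactate dehydrogenase subunit, stood at 89.3, 88.2, 94.4 and 95.7 FPKM in control libraries 1 to 4 and at 138, 138, 137 and 103 FPKM in knockout libraries 1 to 4 (log2 fold change 0.47, SE 0.09, adjusted p = 0.043), and knockout library 4 lay well under the other knockouts. Ppargc1a, a coactivator of mitochondrial genes, stood at 11.4, 12.1, 10.6 and 11.1 FPKM in control libraries 1 to 4 and at 18.2, 18.1, 18.5 and 13.1 FPKM in knockout libraries 1 to 4 (log2 fold change 0.53, SE 0.10, adjusted p = 0.041), and knockout library 4 was again the lowest knockout. Of 48 nuclear-encoded respiratory chain genes and of 36 glycolysis and hypoxia genes 0 were called (limma; 1 and 10 at an unadjusted p under 0.05). Their medians were 0.05 and -0.13, and Eno1, an abundant glycolytic enzyme, stood at 1325, 1384, 1906 and 2025 FPKM in control libraries 1 to 4 and at 1491, 1409.8, 1406 and 1345 FPKM in knockout libraries 1 to 4. For Eno1, control libraries 3 and 4 stood above all the others, and control libraries 1 and 2 lay at the level of the knockouts. Ldha, a lactate dehydrogenase subunit, showed this too: control libraries 1 and 2 stood at 528 and 539 FPKM, control libraries 3 and 4 at 995 and 1001 FPKM, and the knockouts at 488 to 546 FPKM. Nnmt (nicotinamide methylation), Ctsb (a lysosomal protease) and Pyroxd2 (an oxidoreductase) rose by 0.60, 0.47 and 0.49, and Slc45a4, a solute carrier, fell by 0.45. Hmga1, a chromatin architectural protein, stood at 283, 294, 290.1 and 288 FPKM in control libraries 1 to 4 and at 226, 199.9, 207 and 236 FPKM in knockout libraries 1 to 4 (log2 fold change -0.41, SE 0.06, adjusted p = 0.017). H2az2, a histone variant, Ptms (parathymosin), Cpeb1 (cytoplasmic polyadenylation), Rdm1, Rnf157 and Lrrc27 rose by 0.35 to 0.78. Among these 14 genes with Ass1, leaving out control libraries 1 to 4 ended 7, 6, 9 and 9 calls, knockout libraries 1 to 4 ended 11, 13, 12 and 1 (adjusted p = 0.052 to 0.16); Ass1 kept its call throughout.

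Growth control genes moved singly. Pdgfrb, a PDGF receptor, stood at 1.53, 1.91, 1.80 and 1.78 FPKM in control libraries 1 to 4 and at 3.58, 3.36, 3.27 and 2.81 FPKM in knockout libraries 1 to 4 (log2 fold change 0.63, SE 0.08, adjusted p = 0.0087), and Mertk, a TAM receptor kinase, rose by 0.50; they were the 2 called of 13 growth factor receptors and ligands, with 0 lower. Apc, the Wnt pathway scaffold, and Cdkn1b, the inhibitor p27, rose by 0.23 and 0.25, each the only called gene of its list of 15 and 45. Apc lies on chromosome 18 and Cdkn1b on chromosome 6, whose median fold changes were 0.12 and 0.08. With each library centred per chromosome, 0 genes of the Wnt and cell cycle lists were called, and 2 of the growth factor list were called higher. Among 22 p53 genes 2 fell and 0 rose: Plk2 by 0.55 and Trp53inp1 by 0.47. For these lists the share of all tested genes was 1.33% called higher and 0.899% called lower. Without knockout library 4, 5 p53 genes were called lower and 2 cell cycle genes higher. None of the 6 genes Pdgfrb, Mertk, Apc, Cdkn1b, Plk2 and Trp53inp1 was called in each fit leaving out 1 library. Leaving out control libraries 1 to 4 ended 4, 5, 5 and 4 calls, knockout libraries 1 to 4 ended 5, 6, 5 and 1 (adjusted p = 0.052 to 0.16). Of 22 melanocyte pigment and lineage genes 0 were called (limma; 5 at an unadjusted p under 0.05, and 1 higher without knockout library 4). Mitf stood at 145 ± 18.4 FPKM in control and 169 ± 2.80 FPKM in knockout, Sox10 at 167 ± 11.4 FPKM in control and 167 ± 7.06 FPKM in knockout, Tyrp1 at 4494 ± 451 FPKM in control and 4754 ± 72.4 FPKM in knockout and Dct at 3183 ± 513 FPKM in control and 4051 ± 286 FPKM in knockout.

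The genes of some chromosomes shifted together in the knockout libraries. On chromosome 14 the median fold change of 355 tested genes was 0.16 against 0.02 for all genes. Fold changes there were positive for 88.7%, against 57.7% of all tested genes, and 18 genes were called higher and 1 lower. Library medians were 0.16, 0.20 and 0.20 in knockout libraries 1 to 3 and 0.05 in library 4, with controls between -0.01 and 0.02. The shift was alike along the chromosome, with medians of 0.15, 0.16 and 0.17 in its first, middle and last parts of equal gene number. Chromosome 18 had a median of 0.12 over 259 genes, with 0.13, 0.16 and 0.16 in libraries 1 to 3 and 0.03 in library 4; 9 genes were called higher and 0 lower. Chromosome 6 had 0.08 over 535 genes, at 0.07 to 0.09 in all 4 knockout libraries, with 20 called higher and 4 lower. Called genes were 5.35% of those tested on chromosome 14, 3.47% on chromosome 18 and 4.49% on chromosome 6, against 2.23% of all tested genes. Library 4 alone had a lower median on chromosome 8 (-0.10), where Ssbp4 lies. With each library centred per chromosome, 0 genes of chromosome 14 were called higher and 3 lower, and over all genes 55 were called higher and 94 lower; without knockout library 4, 55 chromosome 14 genes were called higher and 2 lower. Called genes of largest change there were Cfap70 (0.85), Ctsb (0.47), Nudt18 (0.45) and Mrps16 (0.41) among the higher and Gja3 (-0.77) as the lower. Apart from Gja3 these 4 lost their calls without knockout library 1, 2 or 3, and 2 or 3 of them without each control library (adjusted p = 0.055 to 0.16).

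**Figure D5:**
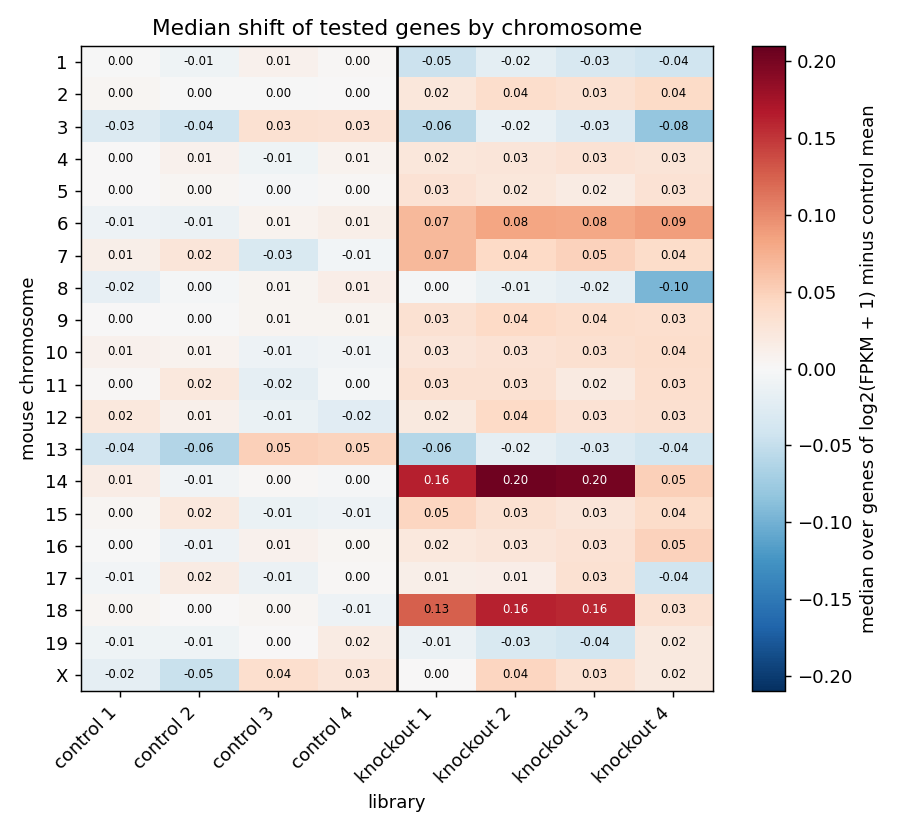
Median over tested genes of log2(FPKM + 1) minus the control mean, for each chromosome (rows) and library (columns) of B16-F10. Chromosomes 14 and 18 are high in knockout libraries 1 to 3 (0.13 to 0.20) and near 0.05 or less in library 4.

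In MC38, where Ssbp4 was overexpressed, 5107 of 10748 tested genes were called (47.5%), so a call there is frequent. Of the 243 genes called in B16-F10, 187 were tested in MC38 and 125 of these were called (66.8%, or 2.76% of the 4536 MC38 calls among genes tested in both lines), where the background among those genes was 46.6%. The direction was the same as in the knockout for 88 and opposite for 37. Id3 stood at 21.8 ± 2.11 FPKM in MC38 wild type (SD, n = 4) and 17.1 ± 1.16 FPKM with overexpression (SD, n = 3), lower as in the B16-F10 knockout (log2 fold change -0.33, SE 0.07, adjusted p = 0.0041). Id2 was lower too (log2 fold change -0.13, adjusted p = 0.034), and Id1 was not called (-0.17, adjusted p = 0.34). Mid1 was lower in both lines, at -0.47 in MC38 (adjusted p = 0.00042). Opposite directions were seen for Cxcl10, from 23.4 ± 0.74 to 41.0 ± 1.18 FPKM (SD, n = 4 and 3; log2 fold change 0.78, adjusted p = 1.8e-07), Gja1 (0.43), Cav1 (0.42) and Cdc42ep1 (-0.63). Fez1 (0.40), Gxylt2 (1.20) and Pdgfrb (1.02) were higher in both comparisons, and Nupr1 was at -0.02 in MC38, not called. Btn2a2, L1cam, Ass1, Smad9, Atoh8 and Gja3 had a mean under 1 FPKM in MC38 and were not tested. The tables of the lines were normalized separately, and the difference between lines was not tested.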

How the data were processed

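Polyadenylated RNA of 8 B16-F10 libraries was sequenced with a stranded kit, per the labels' protocols. The authors deposited a table of FPKM per gene for each line. Per the submitters' processing notes the build was GRCm39 and DESeq2, of no stated version, was among the tools. Aligner, counter and annotation: not given in the sources used here. Columns were assigned by sample title, and 0 were unassigned. Low values came out as whole fragments (tolerance 0.1) for 80.1 to 83.3%, so whole reads were not recovered and no count test was used. Depth of 32.3 to 48.5 M fragments leaves genes near 1 FPKM the least precise.

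Genes with a mean of at least 1 FPKM entered limma 3.58.1 (R 4.3.3; trended variance prior) on the log2(FPKM + 1) scale, 4 knockout against 4 control libraries, with Benjamini-Hochberg adjustment over all tested genes. Genes were called at an adjusted p under 0.05. Because of the added 1, changes of low genes come out too small. The lines were fitted separately. Single values were tested by two-sided exact permutation. Data were also simulated from each gene's mean and spread, with noise independent between genes and libraries, over 10902 genes with 200 changed. There the test found 81% of 1.5-fold and 97% of 2-fold changes, with 3.78% false calls. Such data lack the control pairs, the distance of knockout library 4 and the chromosome shifts. These rates therefore do not give the share of false calls in the real libraries.

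The members and the 48 gene lists were chosen with earlier results of these data known, and 2 further lists were added after values were seen; lists are described by counts and medians, with no test. The naming rule took Ssbp4, the Id genes, the 25 called genes with the highest and the 25 with the lowest fold change, given groups without overlap and a higher mean of at least 5 FPKM (without predicted, clone and pseudogene names), called genes of at least 2-fold change, genes called in each fit leaving out 1 library, up to 3 called members per list and direction or, failing any call, the 2 most abundant, plus 5 genes of the chromosome with the largest median. Of these, abundant members of some lists without calls are not described, and a few items are not reported here, though counts over all genes and lists include them. Genes named outside the rule were chosen after their values were seen. They were Tmem59l, Bnip3, Ldha, Spp1, H2-K1, B2m, Mitf, Sox10, Ssbp3 and Hspa8. The others were the E-protein, SMAD and BMP receptor genes and the further ribosome and nucleotide genes. List members matched by an older symbol numbered 14. Chromosomes came from RefSeq gene records, for 10695 tested genes.

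Alternatives were a pseudocount of 0.1, a filter of 0.1 or 5 FPKM or none, a common FPKM total, median-of-ratios factors, a robust variance model, library weights, the replicate number as a block, centring per chromosome, and leaving out each library. Figures were drawn with matplotlib 3.10.9.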

Additional observations from a re-analysis of the deposited data

Results flagged for a closer look

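A library stood apart from the other 3 of its group in 16 of the 218 groups formed by 109 named genes by Dixon's ratio of gap to range, where chance gives about 1 in 20. Of these, 12 concerned knockout library 4, 3 knockout library 1 and 1 knockout library 2.

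Knockout library 4 was the highest of the knockouts for Id3 (19.8 FPKM, the others 9.95 to 10.8), Gja1 (8.06 FPKM), Pacs1 (8.55 FPKM), Trp53inp1 (16.5 FPKM), Ddx21 (68.4 FPKM) and Calr (756 FPKM). It was the lowest for Ppargc1a (13.1 FPKM), Ccn4 (6.01 FPKM), Dnajc1 (19.99 FPKM), Ldhb (103 FPKM, the others 137 to 138), Dct (3626 FPKM) and Bnip3 (5.40 FPKM). For each of these but Bnip3, this was the side of the controls.

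Knockout library 1 was the lowest for Hspe1 (271 FPKM, the others 319 to 321) and Nop58 (167 FPKM) and the highest for Polr1b (19.7 FPKM). Knockout library 2 was the only one with a level of Gm12481 above 0.05 FPKM (0.051 FPKM).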

How the results depend on the processing

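The sign of the fold change of Ssbp4 and of every called gene named here held under each alternative run, while many calls did not. The number of called genes, 243, became 140 with a filter of 0.1 FPKM, 73 with none, 149 with centring per chromosome and 776 with library weights. Genes called higher, 145, became 71, 33, 55 and 497 under these, 226 at a common total and 80 with median-of-ratios factors. Genes called lower, 98, became 65 with a filter of 5 FPKM, 40 with none and 279 with library weights. Genes of at least 2-fold change, 9, became 19 with a pseudocount of 0.1, 5 with a filter of 5 FPKM and 15 with library weights. Leaving out 1 library gave 23 to 416 calls, 8 to 268 higher, 15 to 148 lower and 7 to 14 of at least 2-fold change. MC38 calls ranged from 4327 to 5098 when 1 library was left out, and were 3902 with the block.

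The replicate number as a block gave 12 calls, 4 higher and 8 lower, and Ssbp4 kept its log2 fold change of -0.62 with an adjusted p of 0.089. Deviations of same-numbered libraries correlated at -0.11, -0.18, 0.17 and -0.30. The labels do not say whether same-numbered libraries share more than the number, and these correlations cannot settle it, given the control pairs and knockout library 4. Of 97 called genes named here, 11 were called with the block, 61 with centring per chromosome, 87 at a common total and 88 with median-of-ratios factors; the cause was not tested.

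Limits: 4 libraries a group, controls in 2 pairs, and no stated separate cultures. Depth was estimated, not given, and genes near 1 FPKM rest on few fragments.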
